A study of Mus musculus with 6 samples.

Results

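The 9 genes described here encode transcription factors that direct the granulocyte and monocyte lineages: the C/EBP family members Cebpa, Cebpb, Cebpd and Cebpe, the ETS factor gene Spi1 (PU.1), the interferon regulatory factor genes Irf8 and Irf5, the zinc-finger repressor gene Gfi1, and Id2. They were taken by name from the 49585 genes of a deposited count table, and all 9 were among the 13744 genes that passed a filter on low counts. The RNA came from a mouse leukaemia of the bone marrow that the labels name MA9, which commonly stands for the oncogenic fusion MLL-AF9. Gata2 KO cells carried a deletion of Gata2 (Gata2 -/-) and are named Cre in the sample descriptions. Gata2 f/f cells carried loxP-flanked Gata2 and are named f-f. Effects of Cre and of the lost gene cannot be told apart, and the promoter that drives Cre is not given in the sources used here. All cultures grew in IMDM with IL-3, IL-6 and SCF and had received 5 uM Nutlin, which frees p53 from MDM2, for 18 h before RNA was purified. Each genotype had 3 libraries, numbered 1 to 3.

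In normal bone marrow, C/EBP alpha and PU.1 together set up the granulocyte-monocyte progenitor, and their balance is a textbook example of a fate switch, with more PU.1 favouring macrophages and more C/EBP alpha favouring granulocytes. IRF8 then promotes monocytes and dendritic cells and restrains neutrophils, while GFI1 represses monocyte genes and C/EBP epsilon completes the neutrophil granule programme. ID2 has no DNA-binding region of its own and works by binding E proteins, and IRF5 relays Toll-like receptor signals to inflammatory genes in macrophages. MLL-AF9 leukaemias are arrested near the granulocyte-monocyte progenitor.

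The libraries held between 17138687 and 26440960 counts. Levels are given as CPM, counts scaled to the library size after TMM normalisation. A gene was called where its adjusted p in edgeR's quasi-likelihood test, over all genes tested, was under 0.05. Gata2 itself, which checks the labels, had 5.44 CPM in Gata2 KO 1, 43.3 CPM in Gata2 KO 2 and 4.33 CPM in Gata2 KO 3, against 33.6, 22.3 and 18.4 CPM in Gata2 f/f 1, 2 and 3. Number 2 of the Gata2 KO samples thus went against its label, and every Gata2 KO value below includes it unless stated. Summed markers of granulocyte-monocyte progenitors (6 of 6 tested) ran from 7829 to 10921 CPM in Gata2 KO and from 6582 to 10991 CPM in Gata2 f/f. B cell markers (1 of 6 tested, Pax5 at 0) summed to at most 5.55 CPM in Gata2 KO and 6.39 CPM in Gata2 f/f. In bulk RNA, fewer cells of a type and less RNA per cell cannot be told apart. The series text calls the 3 samples of a genotype independent, but no label says what a library number stands for or whether the samples were separate leukaemias, so p-values cover the spread of these libraries, which may be technical.

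All 9 factor genes had a higher mean in Gata2 KO than in Gata2 f/f, but none was called. Their log2 fold changes (Gata2 KO over Gata2 f/f) ran from 0.11 to 0.85 with a median of 0.36. Over all genes tested, the median was 0.021 and 52.5% of genes were positive. The largest values belonged to Cebpd, Spi1 and Irf5, the smallest to Gfi1. In edgeR's fit, 0 of the 9 passed the adjusted threshold, as did 0% of all genes, and 1 of the 9 (Spi1) had an unadjusted p under 0.05, a mark that 1.24% of all genes reached. DESeq2 and limma voom without a block called 0 of the 9 as well. In simulated counts, only 10% of 2-fold changes were recovered without a block, so the lack of calls does not exclude differences of this size. No member had Gata2 KO and Gata2 f/f ranges that were apart, while 2.64% of all genes had every Gata2 KO library above every Gata2 f/f library and 2.78% had every one below.

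Per kilobase of exon, Spi1 and Cebpa were the most abundant of the 9 transcripts. On the scale of CPM per kilobase, Spi1 averaged 140.1 over the 6 libraries (range 81.7 to 236) and Cebpa 99.7 (78.0 to 128). Cebpe followed at 55.1 (43.7 to 68.8), Cebpb at 52.0 (24.4 to 92.9) and Gfi1 at 33.7 (17.9 to 55.0). Cebpd had 24.0 (12 to 48.1), Irf8 13.1 (4.86 to 22.2), Irf5 8.45 (2.09 to 20.0) and Id2 4.47 (1.61 to 8.76). Of neighbours in this order, only Cebpa and Cebpe had ranges that did not overlap over the 6 libraries. Within libraries, the order of Cebpa over Cebpe, Cebpd over Irf8, Irf8 over Irf5 and Irf5 over Id2 held in 6 of 6, that of Spi1 over Cebpa in 5 of 6, and that of the other neighbours in 3 or 4 of 6.

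The genes differed in how steady they were across the 6 libraries. Cebpe and Cebpa were the steadiest: the highest library stood 1.58-fold above the lowest for Cebpe and 1.64-fold for Cebpa, and 82.4% and 78.2% of all genes tested had a wider range on the log2 scale. Irf5 was the most variable, with a 9.58-fold span, wider than in all but 5.03% of genes. Id2 spanned 5.43-fold and Irf8 4.57-fold. The remaining genes lay between, with 2.89-fold for Spi1, 3.08-fold for Gfi1, 3.8-fold for Cebpb and 4.01-fold for Cebpd.

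**Figure D1:**
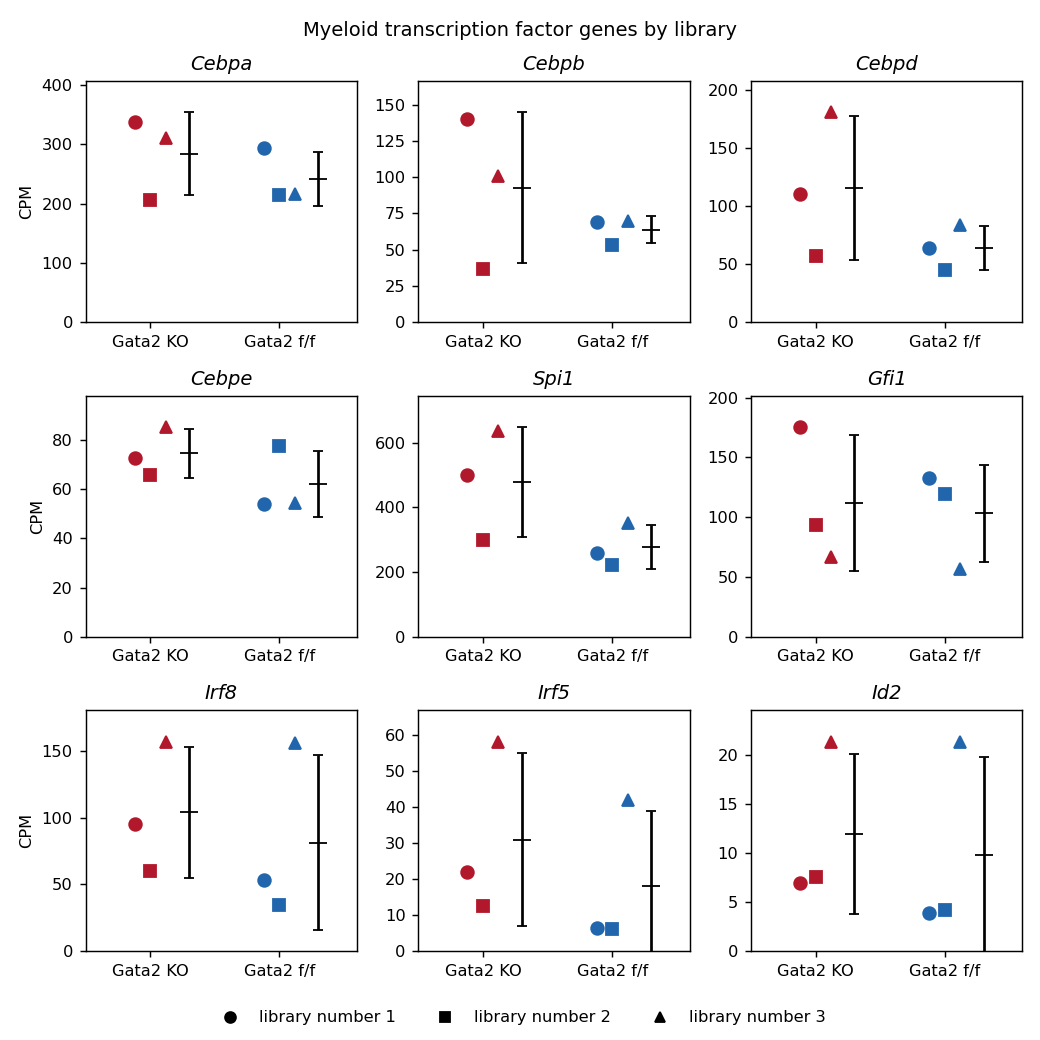
Levels of the 9 factor genes (CPM, linear axes from 0) in each Gata2 KO and Gata2 f/f library; circles, squares and triangles mark library numbers 1, 2 and 3, and bars show the mean ± SD of 3 libraries. The triangles of both genotypes stand together at the top for Irf8, Irf5 and Id2 and at the bottom for Gfi1, and for Spi1 the squares of both genotypes are the lowest points of their group.

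Among the C/EBP genes, Cebpa and Cebpe differed little between genotypes, and Cebpb and Cebpd had larger but uncalled differences. Cebpa (ENSMUSG00000034957.10, protein-coding, GRCm38 chromosome 7, 35119293 to 35121928, plus strand) encodes the factor required to form granulocyte-monocyte progenitors. It had 337, 206 and 310.4 CPM in Gata2 KO 1, 2 and 3, against 294, 215 and 215 CPM in Gata2 f/f. Gata2 KO 1 and 3 were above all Gata2 f/f libraries and Gata2 KO 2 below them, so the groups overlapped. The means were 284 ± 69.5 CPM in Gata2 KO and 241 ± 45.4 CPM in Gata2 f/f (SD, n = 3 each). The log2 fold change was 0.24 ± 0.27 (SE; edgeR, adjusted p = 1.00). Cebpe (ENSMUSG00000052435.6, chromosome 14, 54710360 to 54712174, minus strand), needed for secondary granules of neutrophils, had 72.8, 65.7 and 85.4 CPM in Gata2 KO, against 54.2, 77.5 and 54.4 CPM in Gata2 f/f. Here Gata2 f/f 2 was higher than Gata2 KO 1 and 2, and the log2 fold change was 0.27 ± 0.24 (edgeR, adjusted p = 1.00).

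Cebpb (ENSMUSG00000056501.3, chromosome 2, 167688915 to 167690418, plus strand), which drives granulocyte output in infection and macrophage gene expression, had the widest fold span of the family within Gata2 KO. It lay at 139.8, 36.7 and 101 CPM in Gata2 KO, against 68.7, 53.2 and 69.6 CPM in Gata2 f/f. Both the highest and the lowest library were labelled Gata2 KO, while the Gata2 f/f libraries were close together (92.5 ± 52.0 CPM in Gata2 KO and 63.8 ± 9.25 CPM in Gata2 f/f; SD, n = 3 each). The log2 fold change was 0.54 ± 0.45 (edgeR, adjusted p = 1.00).

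Cebpd (ENSMUSG00000071637.5, chromosome 16, 15887286 to 15891031, plus strand), a gene induced by inflammatory signals and during granulocyte maturation, had the largest log2 fold change of the 9, 0.85 ± 0.44 (edgeR, adjusted p = 1.00). Its levels were 110.0, 56.5 and 180.3 CPM in Gata2 KO, against 63.9, 45.0 and 83.1 CPM in Gata2 f/f. Gata2 KO 1 and 3 stood above the highest Gata2 f/f value, and Gata2 KO 2 was within the f/f range. Between libraries of the same number, Gata2 KO was higher by 0.78, 0.33 and 1.12 on the log2 scale in numbers 1, 2 and 3.

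Reads from an overlapping gene on the opposite strand can enter these values, since the sources used here do not say whether strand was used in counting. Tmem189 overlaps Cebpb and had 706, 543 and 1696 counts in Gata2 KO, against 478, 548 and 1140 in Gata2 f/f. Spidr overlaps Cebpd and had 642 to 916 counts in Gata2 KO and 677 to 1067 in Gata2 f/f. How far these shared reads is unknown, and both C/EBP genes are uncertain to that extent.

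Spi1 (ENSMUSG00000002111.8, chromosome 2, 91082390 to 91115756, plus strand) came closest to a genotype difference. It encodes PU.1, the factor whose dose steers progenitors towards macrophages. There were 499.8, 299 and 636 CPM in Gata2 KO 1, 2 and 3 (10465, 5516 and 15138 counts), against 259, 220.3 and 352 CPM in Gata2 f/f (4537, 4939 and 8825 counts). Only Gata2 KO 2 fell below a Gata2 f/f library, that of number 3, and within each number Gata2 KO was the higher. The means of 478 ± 169 CPM in Gata2 KO and 277 ± 67.5 CPM in Gata2 f/f (SD, n = 3 each) gave a log2 fold change of 0.79 ± 0.34, a 1.73-fold difference. Its unadjusted p of 0.0499 became an adjusted p of 1.00 in edgeR. Only 7.01% of the genes tested had a larger absolute log2 fold change.

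Libraries of the same number deviated together from their group means, with correlations of 0.29, 0.55 and 0.65 in numbers 1, 2 and 3. Gata2 KO 2 and Gata2 f/f 1 also did (0.46), and no label states that the numbers pair the samples. A fit with the number as a block compares libraries within numbers. With that block, edgeR's log2 fold changes were 0.75 ± 0.17 for Spi1 (adjusted p = 0.397), 0.75 ± 0.20 for Cebpd, 0.55 ± 0.22 for Irf8 and 1.07 ± 0.28 for Irf5 (adjusted p = 0.403). These 4 had an unadjusted p under 0.05 with the block, as had 10.7% of all genes, and in the same 4 Gata2 KO was above Gata2 f/f in each number, as in 20.7% of all genes. DESeq2 with the block called 2 of the 9, Spi1 (log2 fold change 0.73, adjusted p = 0.0384) and Irf5 (1.06, adjusted p = 0.0321), where it called 1.75% of genes. Each DESeq2 call was lost without Gata2 KO 1, Gata2 KO 2, Gata2 f/f 1 or Gata2 f/f 2 (adjusted p = 0.421 to 1.00 for Spi1 and 0.636 to 1.00 for Irf5) and held without either library numbered 3. Where the calls were lost, the log2 fold changes were 0.63 to 0.89 for Spi1 and 0.73 to 1.08 for Irf5. Without Gata2 KO 3, DESeq2 gave 0.67 for Spi1 (adjusted p = 0.0138), 1.38 for Irf5 (0.00370) and 0.79 for Irf8 (0.00560).

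**Figure D2:**
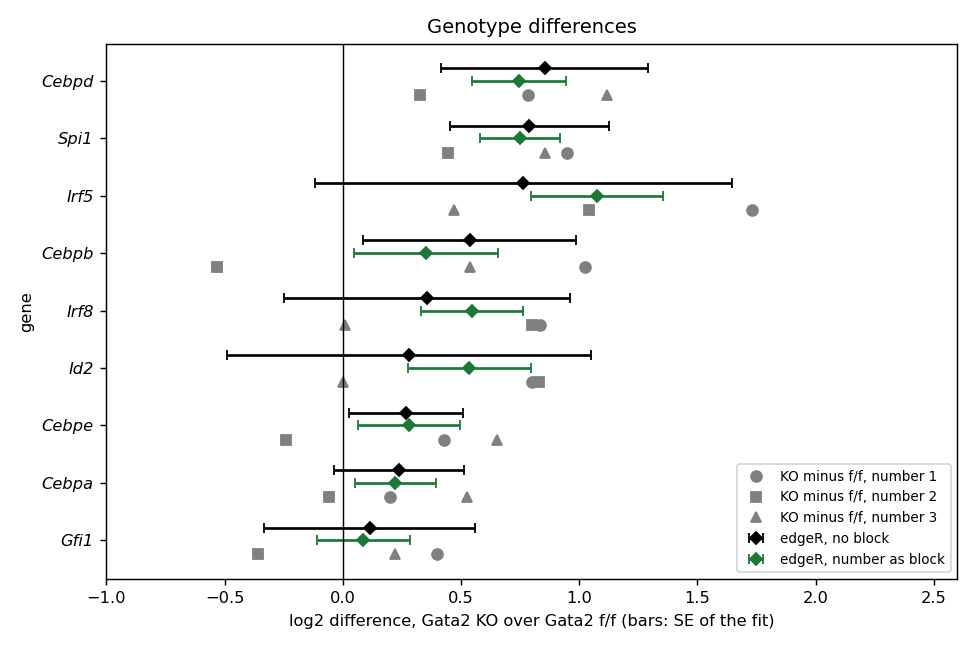
Differences between Gata2 KO and Gata2 f/f on the log2 scale for each factor gene, from edgeR without a block (black) and with the library number as a block (green), with bars of 1 SE, and as the plain difference within each number (grey). For Spi1, Cebpd and Irf5 all grey points lie right of 0, while for Irf8 and Id2 the point of number 3 lies at 0.0076 and -0.00032.

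Spi1 and Cebpd were the most alike of the 9 across libraries. Likeness was measured as the root mean square difference of log2 CPM after centring each gene on its mean over the 6 libraries, and that difference was 0.19 between Spi1 and Cebpd and 0.33 for Cebpa and Cebpe. Over 9320 genes, those closest to Spi1 were Pbxip1 (0.082), Otud3 (0.085) and Dok3 (0.089), and those closest to Cebpd were Tmc8 (0.092), Pi16 (0.11) and Rnpepl1 (0.11). For Cebpa they were Cyhr1 (0.076), Zfp219 (0.087) and Trim8 (0.088), and for Cebpe Dmap1 (0.062), Arl16 (0.067) and Tmem40 (0.074). Cebpb had no such close neighbour, the nearest being Ckap4 and Igf1r (0.24 each) and Fam160a2 (0.25).

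Irf8, Irf5 and Id2 rose together in the libraries numbered 3 of both genotypes, and Gfi1 fell there. Such a placement was common: 21.1% of all genes had both libraries numbered 3 above the other 4, and 20.4% had both below. Irf8 (ENSMUSG00000041515.9, chromosome 8, 120736358 to 120756694, plus strand), the monocyte and dendritic cell determinant, had 95.3, 59.9 and 157 CPM in Gata2 KO 1, 2 and 3, against 53.5, 34.3 and 156 CPM in Gata2 f/f 1, 2 and 3. Number 3 was the highest in each genotype, and at that number the genotypes were level, while in numbers 1 and 2 Gata2 KO was higher by 0.83 and 0.80 on the log2 scale. The genotype difference over all libraries was 0.36 ± 0.60 (edgeR, adjusted p = 1.00).

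Irf5 (ENSMUSG00000029771.12, chromosome 6, 29526625 to 29541871, plus strand) had 22, 12.6 and 58.1 CPM in Gata2 KO 1, 2 and 3 (461, 232 and 1383 counts), against 6.56, 6.07 and 41.9 CPM in Gata2 f/f (115, 136 and 1053 counts). Within each number Gata2 KO was higher, by 1.73, 1.04 and 0.47 on the log2 scale, yet Gata2 f/f 3 was above Gata2 KO 1 and 2, and the difference of 0.76 ± 0.88 was not called (edgeR, adjusted p = 1.00). Tnpo3 overlaps Irf5 on the opposite strand and had 2553, 1868 and 1017 counts in Gata2 KO, against 1885, 2285 and 2202 in Gata2 f/f. The Irf5 level is uncertain as far as such reads were shared.

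Id2 (ENSMUSG00000020644.8, chromosome 12, 25093799 to 25097140, minus strand), whose product keeps E proteins from DNA and is needed for several dendritic cell subsets, was the least abundant per length. It had 6.93, 7.60 and 21.3 CPM in Gata2 KO (145, 140 and 508 counts), against 3.94, 4.24 and 21.4 CPM in Gata2 f/f (69, 95 and 536 counts). The 2 libraries numbered 3 were almost equal and well above the other 4. The genotype difference was 0.28 ± 0.77 (edgeR, adjusted p = 1.00).

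Gfi1 (ENSMUSG00000029275.17, chromosome 5, 107716657 to 107726036, minus strand), a repressor that neutrophil formation depends on, ran the other way. It had 175, 93.1 and 66.4 CPM in Gata2 KO 1, 2 and 3, against 133, 119.65 and 57.0 CPM in Gata2 f/f. Number 3 was the lowest library of each genotype, and the groups overlapped throughout (log2 fold change 0.11 ± 0.45; edgeR, adjusted p = 1.00). A430072P03Rik, an overlapping transcript on the opposite strand, had only 78 to 141 counts in Gata2 KO and 42 to 98 in Gata2 f/f, where Gfi1 had 1580 to 3672 counts in Gata2 KO and 1431 to 2683 in Gata2 f/f.

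The test of library number, in a model that also held genotype, called 4 of the 9 genes, where 9.09% of all genes were called. It tests for any difference among the numbers. Here and below, a called gene counts as higher or lower in number 3 by the sign of number 3 minus the mean of numbers 1 and 2. Such a call can therefore also rest on a difference between numbers 1 and 2. Irf5 (edgeR, adjusted p = 0.0163), Id2 (0.0199) and Irf8 (0.0247) rose in number 3, a pattern called in 6.63% of all genes. Gfi1 fell there (edgeR, adjusted p = 0.0466), as did 2.46% of all genes. Number 3 minus the mean of numbers 1 and 2 was 2.26 for Irf5, 1.95 for Id2, 1.46 for Irf8 and -1.04 for Gfi1 on the log2 scale. Cebpd (0.91; adjusted p = 0.0513) and Spi1 (0.64; 0.0854) missed the threshold in edgeR, though DESeq2's likelihood ratio test called both (0.00125 and 0.0263) and limma voom called Cebpd (0.0468). Cebpa (0.0087) and Cebpe (0.025) were near 0. The calls of Irf5, Id2 and Irf8 held when any 1 of the 6 libraries was left out, with edgeR's adjusted p at most 0.0300. That of Gfi1 was lost without Gata2 KO 1 (adjusted p = 0.104), Gata2 KO 3 (0.0892) or Gata2 f/f 3 (0.0627) in edgeR.

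Markers of other cell types moved with the same libraries. Summed monocyte and macrophage markers (9 of 9 tested) were 1145, 1028 and 2996 CPM in Gata2 KO 1, 2 and 3, against 737, 875 and 2617 CPM in Gata2 f/f. Of these 9 markers, 7 were called higher in number 3, against 6.63% of all genes. Summed dendritic cell markers were 6.78, 9.55 and 73.7 CPM in Gata2 KO, against 3.88, 2.54 and 61.1 CPM in Gata2 f/f, with 1 of 7 tested and Siglech at 0 in every library. Progenitor markers were lowest in number 3 of each genotype, at 7829 CPM in Gata2 KO and 6582 CPM in Gata2 f/f. The part of cell composition in the differences between numbers was not tested.

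**Figure D3:**
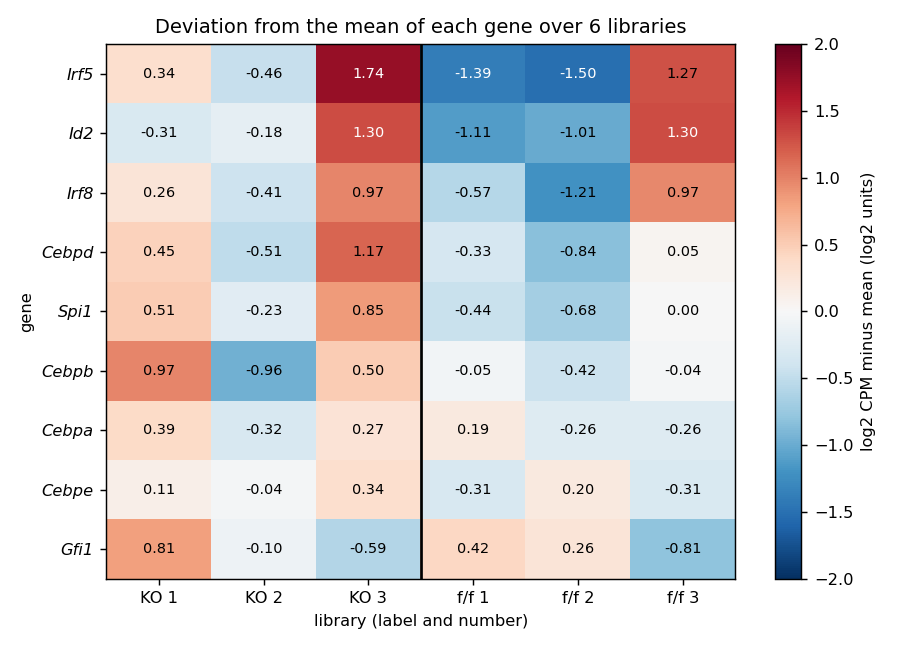
Deviation of each factor gene from its own mean over the 6 libraries (log2 CPM, prior count 2), with Gata2 KO libraries left of the line and Gata2 f/f libraries right of it. Irf5, Id2 and Irf8 are highest in both libraries numbered 3 (0.97 to 1.74), where Gfi1 is lowest (-0.59 and -0.81), and Cebpa and Cebpe stay within 0.39 of their means.

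Likeness uses the same log2 CPM values, so for these 4 genes it restates the pattern over numbers and adds no separate evidence. Gfi1 and Irf5 were the least alike pair of all, at a root mean square difference of 1.66 log2 units, while Irf8 and Id2 lay 0.39 apart. Genes closest to Irf8 were Slc38a7 and Irf9 (0.12 each) and Kif1c (0.13), and those closest to Irf5 were Slc7a7 (0.12), Hacd4 (0.15) and Tmem154 (0.18). For Id2 they were P2rx4 (0.13), Rusc2 (0.14) and Cav2 (0.15). Gfi1 was closest to Pip5k1b (0.099), Rab44 (0.14) and Jarid2 (0.15).

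Promoter sequence is shown for Irf8 and Irf5, which rose in number 3, for Gfi1, which fell, and for Cebpa, which stayed level, so that the upstream letters can be set side by side. RefSeq's table for GRCm38.p6 held 6 of the 9 genes, and each line gives the 250 bases before a start on the gene's own strand, for Gfi1 only the 149 bases nearest the start, up to an annotated exon. The table lists 2 starts each for Irf8 and Gfi1. The first of each is shown, and the window of the second held no match to the motifs below. Capitals mark matches to any of 6 motifs, searched on both strands. The windows are chr8:120736108-120736357 (plus strand) for Irf8, chr6:29526375-29526624 (plus) for Irf5, chr5:107725806-107725954 (minus) for Gfi1 and chr7:35119043-35119292 (plus) for Cebpa.
Irf8: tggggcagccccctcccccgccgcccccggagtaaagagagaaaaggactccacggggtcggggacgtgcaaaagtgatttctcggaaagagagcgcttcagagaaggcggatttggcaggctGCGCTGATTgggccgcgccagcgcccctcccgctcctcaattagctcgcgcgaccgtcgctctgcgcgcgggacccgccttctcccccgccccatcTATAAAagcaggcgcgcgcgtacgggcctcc
Irf5: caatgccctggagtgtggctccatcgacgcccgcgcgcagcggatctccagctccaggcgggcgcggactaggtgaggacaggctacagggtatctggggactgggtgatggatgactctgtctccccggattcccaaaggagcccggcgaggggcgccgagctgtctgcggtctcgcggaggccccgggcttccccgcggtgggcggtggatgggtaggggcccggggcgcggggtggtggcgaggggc
Gfi1: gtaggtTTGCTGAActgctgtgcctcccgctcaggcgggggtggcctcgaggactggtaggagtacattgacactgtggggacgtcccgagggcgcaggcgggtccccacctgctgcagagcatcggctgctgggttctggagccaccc
Cebpa: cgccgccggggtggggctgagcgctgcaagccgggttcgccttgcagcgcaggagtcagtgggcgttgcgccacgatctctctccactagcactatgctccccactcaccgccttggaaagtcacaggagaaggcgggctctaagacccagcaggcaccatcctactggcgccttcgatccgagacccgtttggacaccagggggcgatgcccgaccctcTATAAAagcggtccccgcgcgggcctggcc
Irf8 held 1 match to the GFI1 letters AATCNNNGC, on the minus strand 127 bases before the start, letters found in 8.87% of the 32851 promoters in the table. Gfi1 held 1 match to the C/EBP letters TTGCNNAA (9.56% of promoters). A TATAAA box (12.4% of promoters), a motif added after the sequences were seen, stood 31 bases before the start of Irf8 and 30 before that of Cebpa. The PU.1 letters GAGGAAG (10.6%), the IRF letters GAAANNGAAA (2.98%) and the GATA letters AGATAA (9.99%) were in none of these 4 windows, and the Irf5 window held no match. A match is a run of letters and does not show that a factor binds there.

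Ratios between factors within a library, which library scaling cannot move, were used for the balances named above. The log2 ratio of Cebpa to Spi1 counts was -0.57, -0.54 and -1.04 in Gata2 KO 1, 2 and 3, against 0.18, -0.038 and -0.71 in Gata2 f/f. The ratio was lowest in number 3 of each genotype, and within every number it was lower in Gata2 KO, with differences of -0.75, -0.50 and -0.33. The means were -0.72 ± 0.28 in Gata2 KO and -0.19 ± 0.46 in Gata2 f/f (SD, n = 3 each), a difference of -0.53 (two-sided exact permutation test, p = 0.3; 0.9 adjusted over the 3 ratios). An exact sign-flip test within numbers gave p = 0.25, the smallest that 3 pairs allow, and 0.1 is the smallest for 3 libraries against 3.

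For Gfi1 to Irf8 the log2 ratio was 0.88, 0.64 and -1.24 in Gata2 KO, against 1.31, 1.80 and -1.45 in Gata2 f/f. The sign turned with the library number in both genotypes, positive in numbers 1 and 2 and negative in number 3. The genotype difference was -0.46 (exact permutation p = 0.6; 0.9 adjusted), and within numbers it was -0.44, -1.16 and 0.21. Cebpe to Irf8 was -0.39, 0.13 and -0.88 in Gata2 KO, against 0.018, 1.18 and -1.52 in Gata2 f/f. Again number 3 was the lowest of each genotype, and the difference of -0.27 lay within the spread (exact permutation p = 0.9; 0.9 adjusted).

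**Figure D4:**
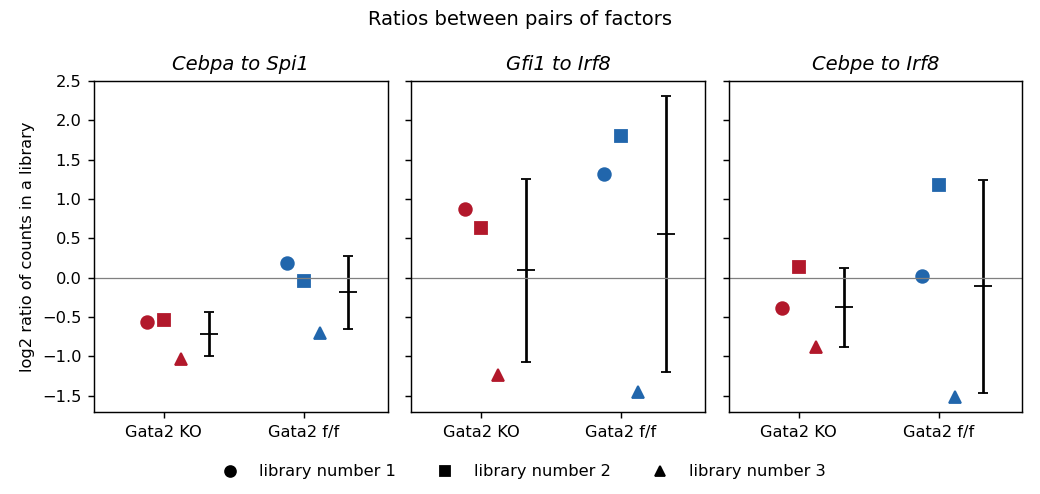
Log2 ratios of counts between pairs of factor genes within each library, for Gata2 KO and Gata2 f/f; symbols mark library numbers and bars the mean ± SD of 3 libraries. The Cebpa to Spi1 ratio averages -0.72 in Gata2 KO and -0.19 in Gata2 f/f with overlapping points, and in the Gfi1 to Irf8 panel the triangles of number 3 (-1.24 and -1.45) lie far below the other points.

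The library labelled Gata2 KO 2, whose Gata2 level went against its label, was the lowest Gata2 KO library for 7 of the 9 genes, all but Gfi1 and Id2, against 30.6% of all genes. For the same genes except Cebpe, Gata2 f/f 2 was likewise the lowest Gata2 f/f library. For Cebpa it was almost level with Gata2 f/f 3 (214.5 and 215.5 CPM). Whether the low values of Gata2 KO 2 go with the library number was not tested. Gata2 KO 2 lay inside the Gata2 f/f range for 7 of the 9, all but Cebpa and Cebpb, as did 68.8% of all genes. Gata2 KO 1 and 3 were both above every Gata2 f/f library for Cebpa, Cebpb, Cebpd and Spi1, 4 of the 9, a position that 9.12% of all genes held. Without Gata2 KO 2, edgeR's log2 fold changes were 1.17 for Cebpd, 1.13 for Irf5, 1.03 for Spi1 and 0.91 for Cebpb. The other 5 lay between 0.22 and 0.63, and the lowest adjusted p of the 9 was 0.9145.

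The relatives and partners of the 9 factors were mixed in direction, where 52.5% of all genes tested were positive. Of 7 tested C/EBP relatives and bZIP partners, 4 were positive with a median log2 fold change of 0.48. The 3 of smallest p were Batf, an AP-1 partner of IRF proteins, at 60.1 ± 20.2 CPM in Gata2 KO and 40.2 ± 6.68 CPM in Gata2 f/f (0.58 ± 0.29), Ddit3 (0.48 ± 0.28), whose product CHOP dimerizes with C/EBP proteins under stress, and Jund (0.49 ± 0.38). Of 9 other interferon regulatory factor genes 6 were positive (median 0.27). Irf1, an interferon-induced activator, had 27.1 ± 3.56 CPM in Gata2 KO and 20.4 ± 6.32 CPM in Gata2 f/f (0.41 ± 0.28), Irf2bp2 had 0.35 ± 0.32, and Irf4 was low, at 0.504 ± 0.108 CPM in Gata2 KO and 1.01 ± 0.579 CPM in Gata2 f/f (-0.999 ± 0.590). Other ETS genes centred on 0.022 (4 of 7 positive), with Fli1 at 0.35 ± 0.28, Ets2 at 0.19 ± 0.30 and Elf1 at -0.24 ± 0.42. None of these was called by edgeR with or without the block.

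The partners of ID2 and GFI1 showed no call either. ID factors and E proteins had 3 of 5 positive (median 0.19). Tcf4, an E protein of plasmacytoid dendritic cells, was at 124 ± 33.6 CPM in Gata2 KO and 80.5 ± 30.8 CPM in Gata2 f/f (0.62 ± 0.35), Id1 at 0.19 ± 0.21 and Tcf12 at -0.19 ± 0.41. The GFI family and its corepressors had 2 of 7 positive and a median of -0.26, the only negative one among these lists of factors and linked genes, with the histone deacetylase Hdac2 at -0.42 ± 0.31, the demethylase Kdm1a at -0.28 ± 0.32 and the paralog Gfi1b, at 1.87 ± 1.01 CPM in Gata2 KO and 0.971 ± 0.751 CPM in Gata2 f/f, at 0.93 ± 0.66. Among 21 other regulators of myeloid fate, 15 were positive (median 0.21), against 52.5% of all genes tested. By library number, 6 of the 21 were called higher in number 3, against 6.63% of all genes. A further 2 were called lower there, against 2.46% of all genes. Neither edgeR fit, blocked or unblocked, called any of the 21 between genotypes. The blocked DESeq2 fit called 1 of them, Maf, and 1.75% of all genes. Maf, a macrophage factor, had 4.92, 2.01 and 19.6 CPM in Gata2 KO, against 1.43, 1.16 and 6.97 CPM in Gata2 f/f. Gata2 KO was above Gata2 f/f within each number, and the log2 fold change was 1.36 in DESeq2 with the block (adjusted p = 0.0371) and 1.38 ± 0.30 in edgeR with the block, which did not call it (adjusted p = 0.397). Zeb1 (-0.80 ± 0.41) and Cbfb, the partner of RUNX1 (-0.33 ± 0.26), were negative and uncalled.

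Genes linked to the factors had mostly positive values, largest for late granule genes, where 52.5% of all genes tested were positive. These lists were chosen with earlier results of these data known, which limits any comparison with the shares of all genes. Of 15 tested genes linked to C/EBP epsilon, 13 were positive with a median log2 fold change of 1.35, edgeR called none, and DESeq2 with the block called 6, all higher in Gata2 KO, where it called 1.75% of all genes. In the test of library number, 5 of the 15 were called higher in number 3, against 6.63% of all genes. Among them, Cxcr2, the neutrophil chemokine receptor, had 33.1, 7.06 and 144 CPM in Gata2 KO, against 6.50, 3.39 and 19.1 CPM in Gata2 f/f (DESeq2 with block, adjusted p = 4.79e-07), and Cd177 was also called (0.00620), while S100a9 was not (0.491). Cebpe itself, at 74.6 ± 9.97 CPM in Gata2 KO and 62.0 ± 13.4 CPM in Gata2 f/f, was not called by any of these fits. The list shares genes with the neutrophil markers, whose sum was 1436, 526 and 2648 CPM in Gata2 KO, against 233, 545 and 833 CPM in Gata2 f/f. The part of neutrophil-like cells in that difference was not tested. Primary granule and progenitor genes linked to C/EBP factors were 9 of 11 positive with a median of 0.29, among them Prtn3 (0.51 ± 0.29), Cst7 (0.45 ± 0.30) and Fcnb, which was high in Gata2 KO 1 only (6.30 CPM, against 0.597 to 0.882 CPM in the other 5 libraries).

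Of 17 receptor and adhesion genes linked to PU.1, 15 were positive (median 0.54) and 10 were called higher in number 3. Over all genes tested, 52.5% were positive and 6.63% were called higher in number 3, shares that also stand beside the counts of the IRF8 and IRF5 lists here. Fcgr3, an Fc receptor, had 198, 135 and 649 CPM in Gata2 KO, against 85.7, 106 and 313 CPM in Gata2 f/f, and it was past the threshold in the blocked DESeq2 fit (adjusted p = 0.0249), together with its signalling chain Fcer1g (0.0427), which was chosen after its values were seen. Like Spi1, both were higher in Gata2 KO within each number. The oxidase subunit genes Ncf4 (0.76 ± 0.57) and Ncf1 (0.44 ± 0.31) were uncalled between genotypes. Of 11 genes linked to IRF8, 8 were positive (median 0.25) and 5 were called higher in number 3. DESeq2 with the block called 3 of the 11, where it called 1.75% of all genes. Ctss, a lysosomal protease of antigen presentation and chosen after its values were seen, had 103, 83.0 and 434 CPM in Gata2 KO, against 27.1, 19.0 and 267 CPM in Gata2 f/f (DESeq2 with block, adjusted p = 2.72e-05). Cst3 (0.55 ± 0.54), Cx3cr1 (-1.36 ± 1.118) and Flt3 (-1.82 ± 1.07) were uncalled. All 7 tested inflammatory genes linked to IRF5 were positive (median 0.40), led by Tnf at 10.2, 5.21 and 19.8 CPM in Gata2 KO, against 3.88, 2.54 and 12.2 CPM in Gata2 f/f (0.92 ± 0.70), and 4 of the 7 were called higher in number 3. Nos2 (0.45 ± 0.76) and Il6 (0.64 ± 1.09) averaged under 2 CPM in both genotypes. In these PU.1, IRF8 and IRF5 lists edgeR called none between genotypes, with or without the block.

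**Figure D5:**
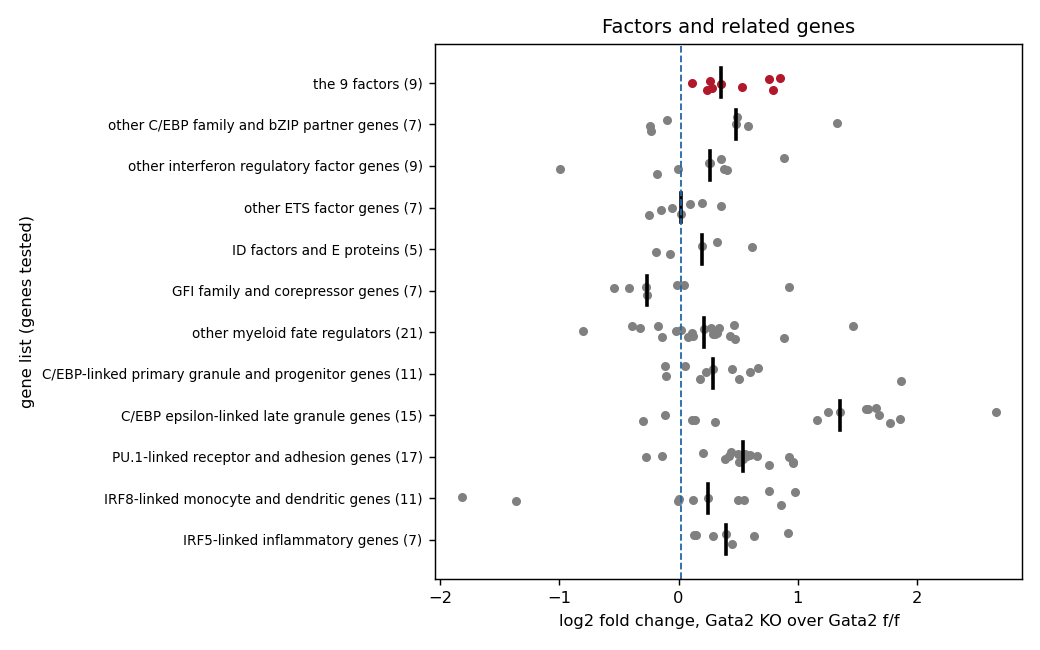
Log2 fold changes of Gata2 KO over Gata2 f/f for the 9 factor genes (red) and for related factors and linked genes (grey), with a black bar at the median of each list and a dashed line at the median of all genes tested (0.021). The factor genes lie between 0.11 and 0.85, and the late granule genes have the highest median, 1.35.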

How the data were processed

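RNA was measured in 6 libraries, 3 labelled Gata2 KO and 3 Gata2 f/f. Per the labels' protocols, poly(A) RNA was made into libraries with a NEBNext Ultra II kit and read in pairs. The authors deposited whole-number counts per gene, not normalised. Per the submitters' processing notes, the build was mm10 and the tools included HTSeq, kallisto and DESeq2, with no role or version. The counting tool, annotation and strand use are not stated there. Reads carry no molecular identifiers.

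Of 49585 identifiers, 49326 matched GENCODE M21 (GRCm38) without the version; the rest held 0.00962% of counts. Coordinates and exon lengths are from that annotation, and promoters from RefSeq GRCm38.p6. The 13744 genes kept by filterByExpr (minimum count 10) held 99.9% of counts. R 4.3.3 was used with edgeR 4.0.16 (TMM, robust quasi-likelihood test, Benjamini-Hochberg over all genes), limma 3.58.1 and DESeq2 1.42.0. SEs come from the F statistic, ratios add 0.5 to each count, and likeness used genes of at least 5 CPM. The tests were checked on simulated counts. Of 2-fold changes between genotypes, 10% were recovered without the block and 0% with it. For 4-fold changes the shares were 82% and 56%. These shares hold for the simulated counts and do not show which fit has more power in the real data. In the real data the biological coefficient of variation was 0.256 with the block and 0.426 without. The test of library number recovered 22% of 2-fold and 94% of 4-fold changes. The largest fold of a member between genotypes without the block was 1.81 (Cebpd), a size at which most changes would be missed.

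Same-number libraries of Gata2 KO and Gata2 f/f deviated together from their group means (correlations 0.29, 0.55 and 0.65), which met the rule applied for pairing. Yet Gata2 f/f 1 correlated more with Gata2 KO 2 (0.46) than with Gata2 KO 1 (0.29). The correlations thus do not establish that the numbers pair the samples. The biological coefficient of variation was 0.256 with the block and 0.426 without. Alternatives covered scaling, filter, test, block, dispersion and left-out libraries. Those joining DESeq2, the block and left-out libraries, and the left-out libraries in the number test, were added after the data were seen.

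The members and lists were chosen with earlier results of these data known. Named genes are the 9 members, Gata2, the 3 closest genes to each member and up to 3 genes of smallest p in each list. Ctss, Fcer1g and the genes that overlap members were named outside that rule, after their values were seen.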

Additional observations from a re-analysis of the deposited data

How the results depend on the processing

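The count of genes called between genotypes was 0 in edgeR under both other scalings, other filters, a threshold of 0.01, no robust estimation, voom, the replicate block and each left-out library, with 171 genes at an unadjusted p under 0.05. It was 7 with DESeq2 (2 higher, 5 lower), 222 with DESeq2 and the block (180 higher, 42 lower) and 54 with the block and without Gata2 KO 2 (33 higher, 21 lower). That last fit, which in effect compares the genotypes within numbers 1 and 3 only, gave Gata2 -2.36 (edgeR, adjusted p = 0.00356) and no member a call. Cebpa, Cebpb, Cebpd, Cebpe and Spi1 kept a positive sign in every edgeR fit. The remaining genes turned negative when 1 library was left out: Irf8 (-0.087 without Gata2 KO 3, -0.011 without Gata2 f/f 2; range -0.087 to 1.21), Gfi1 (-0.39 without Gata2 KO 1, -0.23 without Gata2 f/f 3; to 0.35), Id2 (-0.46 when Gata2 KO 3, -0.13 when Gata2 f/f 1 and -0.083 when Gata2 f/f 2 was out; to 1.52) and Irf5 (-0.095 without Gata2 KO 3; to 2.26). Without both libraries numbered 3, DESeq2 with the block gave Gfi1 -0.0085; with 1 library left out that fit went as low as -0.093 for Gfi1 and -0.017 for Cebpb. Leaving out 1 library, 6 to 9 members stayed positive. The Gfi1 to Irf8 difference ranged from -1.47 to 0.20 (0.20 without Gata2 KO 3, 0.16 without Gata2 f/f 2), Cebpe to Irf8 from -0.97 to 0.37 (0.37 without Gata2 f/f 2) and Cebpa to Spi1 from -0.79 to -0.34. Between numbers, 1249 genes were called by edgeR, 2870 by DESeq2's likelihood ratio test and 444 without the genotype term, where 1 member (Id2) stayed called. Voom called 5 members and the likelihood ratio test 6; leaving out 1 library gave 757 (without Gata2 KO 3) to 3460 (without Gata2 f/f 3) genes and 3 to 5 members. Without robust estimation Gfi1 was not called (edgeR, adjusted p = 0.0504). The causes were not tested. With 3 libraries a genotype, the differences of Cebpa, Gfi1, Irf8, Id2 and Irf5 lay within 1 SE in edgeR's fit without the block. With the block, only that of Gfi1 did (0.086 ± 0.196), and Cebpa had 0.222 ± 0.171.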

Other observations

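Outside the factor lists, a few values of other lineages were seen that the comparisons above do not use. Summed erythroid markers (4 of 7 tested) were lowest in number 3 of each genotype, at 359, 496 and 167 CPM in Gata2 KO 1, 2 and 3, against 434, 678 and 273 CPM in Gata2 f/f. Summed mast cell and basophil markers (3 of 7 tested) were highest in the library labelled Gata2 KO 2, at 5.87, 21 and 5.76 CPM in Gata2 KO, against 11.5, 14.3 and 6.17 CPM in Gata2 f/f. That library was also the one of high Gata2. Summed megakaryocyte markers (3 of 6 tested) were 14.6, 27.8 and 51.0 CPM in Gata2 KO, against 7.41, 5.62 and 42.8 CPM in Gata2 f/f, higher in Gata2 KO within each number. These sums were not tested.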
